A study of Mus musculus with 24 samples.

Results

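The genes described here are 10 mouse genes of the FoxO programme of muscle wasting and cell stress, followed in infarcted heart tissue with and without insulin-like growth factor 1 (IGF1). They were chosen by name: the transcription factors Foxo1 and Foxo3 and 8 genes known as FoxO targets, namely Fbxo32, Trim63, Bnip3, Klf15, Irs2, Sesn1, Sesn3 and Gadd45a. Of these 10 genes, 10 were measured, by 13 probes, among 15875 genes tested in all. The probe that stands for each of them was well above background on 24 of 24 arrays.

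Male C57BL6/J mice had a coronary artery of the anterior heart wall tied for 45 min and then reopened, and the area at risk was taken 24, 48 or 168 h later. Each time has a vehicle group, given phosphate-buffered saline with bovine serum albumin, and an IGF1 group, given mature recombinant IGF1 as a bolus of 40 ng per g body weight at reopening and then 1 µg per g per day from an osmotic pump over the first 3 days. The pump period was thus over before the 168 h samples were taken. All 6 groups share the strain, the sex and, per the sample labels, the ischemia; the series' design text speaks instead of sham-operated controls, and the sample labels were followed. Each group has 4 samples, with 1 one-colour array each. No label states that the samples of a group are separate animals, and the spread behind each p-value may therefore be technical in part; no age is given. The comparison of IGF1 with vehicle asks how the growth factor alters gene expression in the reperfused infarct.

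IGF1 binds a receptor tyrosine kinase and, through insulin receptor substrates and PI3 kinase, activates AKT. AKT phosphorylates FoxO proteins, which then leave the nucleus, so that FoxO target genes are transcribed less. In skeletal and heart muscle, FoxO targets include the ubiquitin ligases that break down the contractile apparatus and receptors for mitophagy, and several of them also answer to glucocorticoids. FoxO activity is set largely by phosphorylation and location of the protein, neither of which an mRNA array reads.

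Values are log2 signals minus the log2 of the array's 75th percentile, so 0 marks the signal at that percentile and 1 unit is a 2-fold step. They compare arrays for 1 probe and do not rank genes. A gene is said to rise or fall only where limma's moderated test gave an adjusted p under 0.05 over all 15875 genes.

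In the 250 bases before the RefSeq start sites (build GRCm38.p6), 9 of the 10 genes could be matched to a sequence, in 10 windows. The windows were searched on both strands for a FoxO core (GTAAACA, or TGTTTAC on the other strand), an insulin response core (CAAAACA or TGTTTTG) and a glucocorticoid receptor palindrome (GAACANNNTGTTC). Matches were found in the windows of 2 genes, Trim63 and Irs2, shown here because both belong to the programme under study and Trim63 rose under IGF1. Capitals mark the matched letters.
Trim63, chr4:134314887-134314957, plus strand: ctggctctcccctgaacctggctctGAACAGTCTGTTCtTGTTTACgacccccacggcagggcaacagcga
Irs2, chr8:11008935-11008991, minus strand: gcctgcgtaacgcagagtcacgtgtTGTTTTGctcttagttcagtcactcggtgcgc
In Trim63 the palindrome starts 208 bases and the FoxO core 194 bases before the start site, without overlap. In Irs2 the insulin response core starts 37 bases before it. Over all 32851 promoter windows of this length, 3.17% hold the FoxO core, 5.56% the insulin response core and 0.0396% the palindrome. A match describes the letters only.

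At 24 h the genes that changed under IGF1 were the muscle ubiquitin ligases, a mitophagy receptor and Klf15, and they went up. Of the 10 genes 4 were higher with IGF1 than with vehicle and 0 were lower: Fbxo32, Klf15, Bnip3 and Trim63 rose 1.47- to 2.19-fold. Over all genes tested, 8.76% rose and 7.26% fell in the same comparison. The median difference of the 10 genes was 0.39 (log2) against 0.01 over all genes. The transcripts of the factors themselves, Foxo1 and Foxo3, differed by 0.09 and -0.05.

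**Figure D1:**
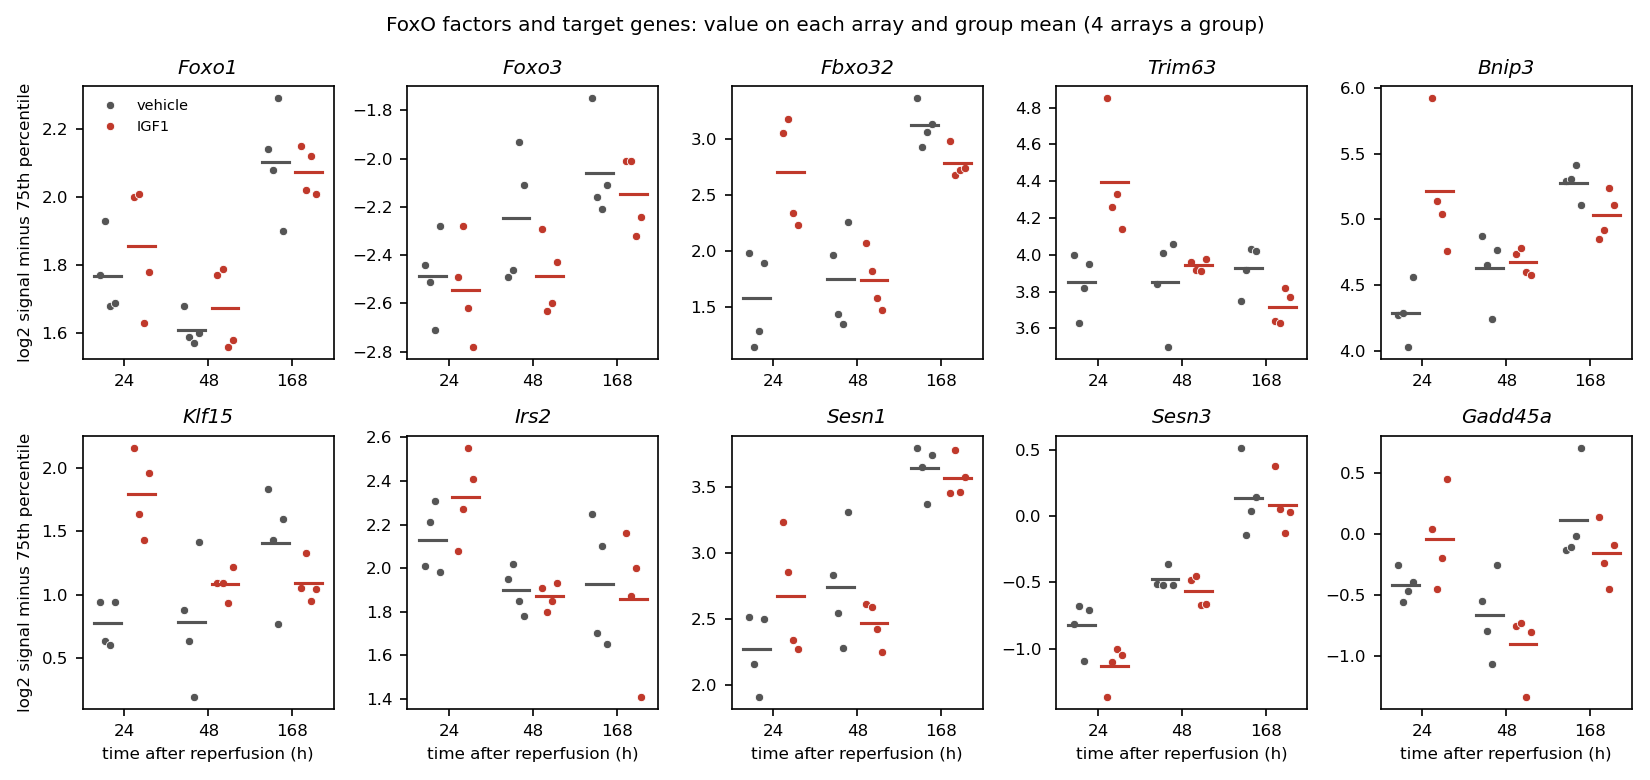
Each panel plots one gene's level (log2 signal minus the array's 75th percentile) on every array against time after reperfusion; grey dots are vehicle, red dots IGF1, and bars are means of 4 arrays. At 24 h the IGF1 and vehicle dots of Fbxo32, Trim63, Bnip3 and Klf15 do not overlap, and at 48 and 168 h they overlap for all 10 genes. The share of all genes without overlap was not computed.

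Fbxo32 encodes atrogin-1, the substrate-binding part of a muscle ubiquitin ligase that marks proteins for the proteasome. At 24 h its levels with vehicle were 1.98, 1.14, 1.28 and 1.89, and with IGF1 3.05, 3.18, 2.34 and 2.23. The lowest IGF1 array thus stood above the highest vehicle array. How many of all genes had no overlap was not counted, and 30.2% of them had an unadjusted p under 0.05 in limma here. The rise was 2.19-fold (log2 1.13, SE 0.24, adjusted p = 0.00429). Trim63 encodes MuRF1, the ubiquitin ligase that targets myosin and other thick-filament proteins. Its levels were 4.0, 3.63, 3.82 and 3.95 with vehicle and 4.85, 4.26, 4.33 and 4.14 with IGF1, again without overlap. The rise was 1.47-fold (log2 0.55, SE 0.13, adjusted p = 0.00937). A second Trim63 probe, also well above background on 24 arrays, differed by 0.57 (adjusted p = 0.0341).

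Bnip3, a mitochondrial receptor for mitophagy that is also induced by hypoxia, stood at 4.27, 4.29, 4.03 and 4.56 with vehicle and at 5.92, 5.14, 5.04 and 4.76 with IGF1. The 4 IGF1 arrays were all higher, with array 1 farthest up. The rise was 1.90-fold (log2 0.93, SE 0.18, adjusted p = 0.00314). Klf15, a Krüppel-like factor that is induced by glucocorticoids and drives amino acid breakdown, was measured at 0.94, 0.63, 0.60 and 0.94 with vehicle and at 2.16, 1.64, 1.43 and 1.96 with IGF1. Here the groups were 0.49 apart at their nearest arrays. The rise was 2.03-fold (log2 1.02, SE 0.22, adjusted p = 0.00579).

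The other 6 genes did not pass the test at 24 h, and their groups overlapped. Irs2, the adaptor that carries insulin and IGF1 signals to PI3 kinase and is itself a FoxO target, stood at 2.01, 2.21, 2.31 and 1.98 with vehicle and at 2.08, 2.27, 2.55 and 2.41 with IGF1. The difference was 0.20 (95% interval -0.11 to 0.50, adjusted p = 0.392). Foxo1 differed by 0.09 (95% interval -0.11 to 0.28, adjusted p = 0.565) and Foxo3 by -0.05 (-0.35 to 0.24, adjusted p = 0.831). A fall of either factor's transcript by more than 0.35 (log2) lies outside these intervals.

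Among the stress genes, the sestrins Sesn1 and Sesn3, which restrain mTORC1 and are induced by stress, differed in opposite directions without passing the test. Sesn1 was at 2.51, 2.16, 1.91 and 2.50 with vehicle and at 3.23, 2.85, 2.34 and 2.27 with IGF1, a difference of 0.40 (95% interval -0.03 to 0.84, adjusted p = 0.20). Sesn3 was at -0.81, -0.68, -1.09 and -0.71 with vehicle and at -1.36, -1.10, -1.0 and -1.05 with IGF1. Its difference of -0.31 had the lowest value of the 10 (95% interval -0.57 to -0.04, adjusted p = 0.109). Gadd45a, which arrests the cell cycle after DNA damage, differed by 0.38 (95% interval -0.06 to 0.82, adjusted p = 0.239). Its IGF1 arrays spread from -0.45 to 0.45 and its vehicle arrays from -0.56 to -0.25.

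With only the 8 arrays of 24 h in the fit, the differences are the same but the calls of Fbxo32 (adjusted p = 0.0524), Bnip3 (0.0572) and Trim63 (0.0813) were lost, and that of Klf15 was kept. The 4 rises held when each of the 8 arrays was left out in turn.

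Every slide carried 1 vehicle and 1 IGF1 array of 24 h, so the difference could be read within slides. On slides 1 to 4, Fbxo32 differed by 1.07, 2.04, 1.06 and 0.34, Trim63 by 0.86, 0.64, 0.51 and 0.20, and Bnip3 by 1.64, 0.85, 1.02 and 0.20. Klf15 differed by 1.22, 1.01, 0.83 and 1.02. All 4 genes were higher with IGF1 on each of the 4 slides, and 3 of them differed least on slide 4.

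At 48 h 0 of the 10 genes passed the test in either direction, where 0% of all genes rose and 0.0126% fell. At an unadjusted p under 0.05, limma gave 0 of the 10 genes and 1410 of all genes. Differences ran from -0.27 for Sesn1 to 0.30 for Klf15 (95% interval -0.17 to 0.77, adjusted p = 0.739). Fbxo32 stood at 1.96, 1.43, 1.34 and 2.26 with vehicle and at 2.07, 1.82, 1.58 and 1.47 with IGF1, a difference of -0.01 (95% interval -0.50 to 0.48). Bnip3 differed by 0.04 and Trim63 by 0.09, with overlapping groups.

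At 168 h 0 of the 10 genes passed either, as 0% of all genes rose and 0% fell. At an unadjusted p under 0.05, limma gave 0 of the 10 genes and 615 of all genes. The differences of all 10 genes were below 0, from -0.34 for Fbxo32 (95% interval -0.83 to 0.15) and -0.31 for Klf15 (-0.78 to 0.15) to -0.03 for Foxo1 (-0.22 to 0.17), each with an adjusted p of 1. The median difference of the 10 genes was -0.15 against -0.01 over all genes, whose share below 0 was not counted. Fbxo32 stood at 3.36, 2.93, 3.06 and 3.13 with vehicle and at 2.98, 2.68, 2.72 and 2.74 with IGF1. Only the highest IGF1 array reached into the vehicle range. Between samples of the same number Fbxo32 differed by -0.37, -0.25, -0.34 and -0.38, and with the number as a block its difference was -0.34 (adjusted p = 0.994) and 0 of the 10 genes passed.

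**Figure D2:**
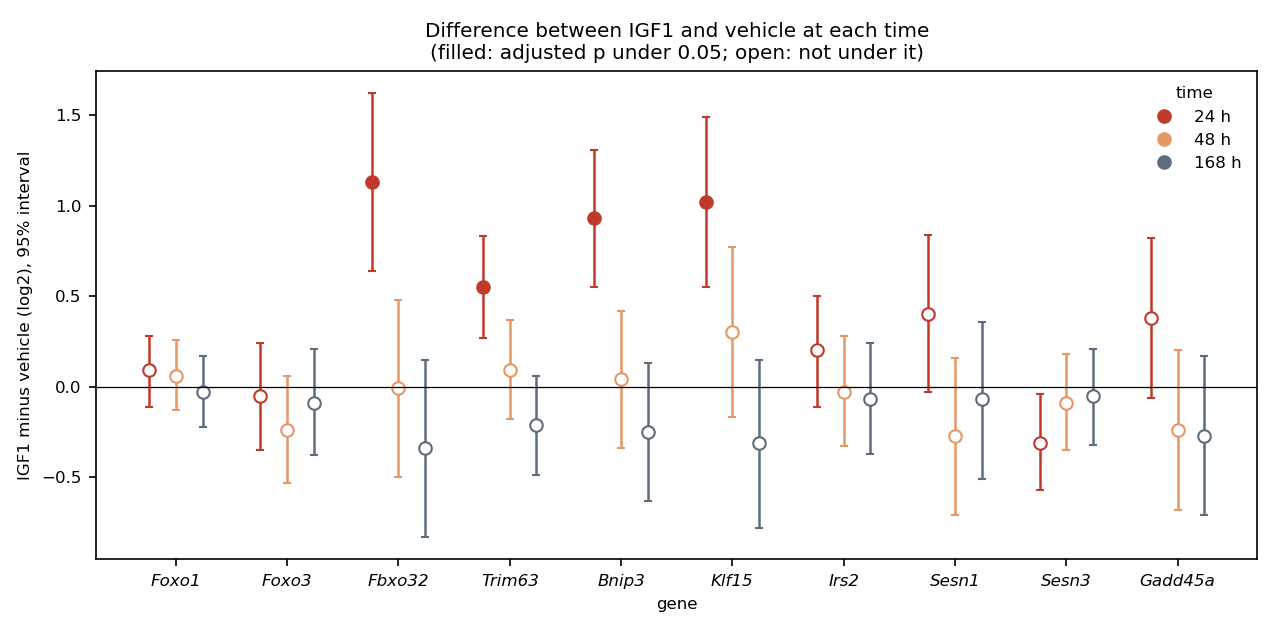
The difference between IGF1 and vehicle (log2, y axis) is plotted for each gene at 24, 48 and 168 h, with 95% intervals from 4 arrays a group. Filled dots passed an adjusted p under 0.05: Fbxo32, Trim63, Bnip3 and Klf15 at 24 h. The intervals of all 10 genes cover 0 at 48 and 168 h.

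The IGF1 effect was tested for a difference between the 3 times. It differed for 4 of the 10 genes, against 5.6% of all genes: Bnip3 (adjusted p = 0.0222), Fbxo32 (0.0259), Klf15 (0.0404) and Trim63 (0.0442). These are the genes called at 24 h, and the test uses the 24 h arrays too. Set directly against 168 h, the 24 h effect was larger by 1.46 (log2) for Fbxo32 (SE 0.33, adjusted p = 0.011), 1.33 for Klf15 (SE 0.32, adjusted p = 0.014), 1.18 for Bnip3 (SE 0.26, adjusted p = 0.00906) and 0.76 for Trim63 (SE 0.19, adjusted p = 0.0161). Over all genes 5.35% had a higher and 5.73% a lower effect at 24 h than at 168 h. Against 48 h, 0 of the 10 genes passed (0.0567% of all genes higher, 0.0126% lower), and 5 of the 10 had an unadjusted p under 0.05 in limma, as did 17.4% of all genes. Of the calls over all genes, 9 higher and 2 lower, 81.8% were thus higher at 24 h. With the array median as scale the share was 50%, from 1 higher and 1 lower call. With quantile scaling it was 80%, from 4 higher and 1 lower. These counts are too small to compare. In the main fit the 24 h effect exceeded that at 48 h by 1.14 for Fbxo32 (adjusted p = 0.105) and 0.89 for Bnip3 (adjusted p = 0.103).

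The contrast with 168 h kept its 4 calls when each array was left out, whereas the test over 3 times called 0 of the 10 genes without vehicle array 2 of 24 h and 1 without IGF1 array 1 of 24 h. Over 34 alternatives that test lost Trim63 under 22, Klf15 under 17, Fbxo32 under 3 and Bnip3 under 1. Averaged over the 3 times, 0 of the 10 genes differed between IGF1 and vehicle (0.0567% of all genes higher, 0.416% lower). In that average Klf15 was highest, at 0.33 (adjusted p = 0.294), and 2 of the 10 genes had an unadjusted p under 0.05, as did 12.1% of all genes.

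With vehicle, most of the 10 genes were higher a week after reperfusion than on the first day. From 24 to 168 h 8 of 10 rose and 0 fell, where 28.1% of all genes rose and 32.1% fell, and the median of the 10 was 0.58 (log2) against -0.03 over all genes. Fbxo32 rose by 1.55 (SE 0.24), from a mean of 1.57 ± 0.42 to 3.12 ± 0.18 (SD, n = 4), Sesn1 by 1.36 (SE 0.21), from 2.27 ± 0.29 to 3.64 ± 0.19, and Bnip3 by 0.99 (SE 0.18), from 4.29 ± 0.22 to 5.28 ± 0.13. Sesn3 rose by 0.96 (SE 0.13): its vehicle arrays lay at -1.09 to -0.68 at 24 h and at -0.14 to 0.51 at 168 h. Both FoxO factors rose as well, Foxo1 by 0.34 (adjusted p = 0.0038) and Foxo3 by 0.43 (adjusted p = 0.0122). Trim63, at 3.85 ± 0.17 and 3.93 ± 0.13, and Irs2, at 2.13 ± 0.16 and 1.93 ± 0.29, did not pass.

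The slides held the times unevenly: 48 h samples lay on slides 2, 3 and 4 and 168 h samples on slides 1 and 4. With slide as a block, 5 of the 8 rises from 24 to 168 h kept their call, and Foxo3 (adjusted p = 0.0657), Gadd45a (0.0672) and Klf15 (0.125) lost it. Within slide 1 and slide 4 Fbxo32 rose by 1.14 and 1.24, Sesn1 by 1.10 and 1.23, Sesn3 by 0.94 and 0.85, Bnip3 by 1.06 and 0.54 and Foxo1 by 0.40 and 0.22. These within-slide values rest on 1 vehicle array of 24 h each. With the array median in place of the 75th percentile, the median of all genes in this comparison moved from -0.03 to -0.13, and 37.9% instead of 46.6% of the calls over all genes were rises. Of the 8 rises 4 kept their call on that scale. Foxo1 (0.23, adjusted p = 0.0777), Foxo3 (0.32, adjusted p = 0.0571), Gadd45a (0.42, adjusted p = 0.0826) and Klf15 (0.53, adjusted p = 0.0558) lost it. The second Foxo1 probe rose by 0.33 (adjusted p = 0.00963), whereas the second Foxo3 probe, above background on 13 arrays, differed by 0.38 (adjusted p = 0.332).

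The shorter steps were tested too. From 24 to 48 h 0 of the 10 genes passed (11.2% of all genes rose and 11.5% fell), with 2 at an unadjusted p under 0.05 in limma, against 35.4% of all genes. Sesn1 differed by 0.47 (adjusted p = 0.113) and, with slide as a block, by 0.55 (adjusted p = 0.0233). From 48 to 168 h 7 of the 10 rose and 0 fell, where 25% of all genes rose and 28.1% fell: Fbxo32 by 1.37, Sesn1 by 0.90, Gadd45a by 0.78, Bnip3 by 0.65, Klf15 by 0.63, Sesn3 by 0.62 and Foxo1 by 0.49. With slide as a block Bnip3 (0.40, adjusted p = 0.126) and Klf15 (0.27, adjusted p = 0.369) were no longer called. The groups of Klf15 overlapped, and its call was lost under 7 of 18 alternatives, array weights among them (adjusted p = 0.0979 in limma). Slide 4 alone held both times, with 1 array each: Fbxo32 differed there by 0.87, Gadd45a by 0.95, Sesn3 by 0.66 and Sesn1 by 0.43.

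With IGF1, 6 of the 10 genes fell from 24 to 48 h and 1 rose, where 21.3% of all genes fell and 16.3% rose. Fbxo32 fell by 0.97 (SE 0.24, adjusted p = 0.00315), Gadd45a by 0.86 (SE 0.21), Klf15 by 0.71 (SE 0.22), Bnip3 by 0.54 (SE 0.18), Trim63 by 0.46 (SE 0.13) and Irs2 by 0.45 (SE 0.15), and Sesn3 rose by 0.56 (SE 0.13). Whether these changes differ from those with vehicle is the contrast of the 24 h and 48 h effects given above, which called 0 of the 10 genes. With slide as a block the falls of Klf15 (-0.44, adjusted p = 0.0909), Bnip3 (-0.41, adjusted p = 0.0799) and Trim63 (-0.33, adjusted p = 0.0648) lost their call. Slides 2 and 3 held both times: within them Fbxo32 differed by -1.23 and -0.82, Gadd45a by -0.29 and -0.87, Klf15 by -0.55 and -0.36, and Sesn3 by 0.64 and 0.34.

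From 48 to 168 h with IGF1 5 of the 10 rose and 0 fell (22.6% and 26.2% of all genes): Sesn1 by 1.10, Fbxo32 by 1.05, Gadd45a by 0.74, Sesn3 by 0.65 and Foxo1 by 0.40. The slide block left the calls of Sesn1, Sesn3 and Foxo1, ended those of Fbxo32 (0.57, adjusted p = 0.11) and Gadd45a (0.44, adjusted p = 0.145) and added a fall of Trim63 (-0.50, adjusted p = 0.0268). No slide held IGF1 arrays of both times, and with the array median as scale 36% instead of 46.3% of the calls over all genes were rises. Over the whole span from 24 to 168 h 4 rose (24.6% of all genes) and 3 fell (33.9% of all genes). Sesn3 rose by 1.21 (SE 0.13), Sesn1 by 0.89 (SE 0.21), Foxo3 by 0.40 and Foxo1 by 0.22, while Klf15 fell by 0.70 (SE 0.22), Trim63 by 0.68 (SE 0.13) and Irs2 by 0.47 (SE 0.15). The rises of Foxo1 (0.17, adjusted p = 0.0563) and Foxo3 (0.34, adjusted p = 0.0908) were lost with slide as a block, and also with the array median as scale, which moved the median of all genes from -0.09 to -0.19. Of 18 alternatives, 10 ended the call of Foxo1 and 8 that of Foxo3. The second probes differed by 0.16 for Foxo1 (adjusted p = 0.2) and 0.06 for Foxo3 (adjusted p = 0.881). Within slides 1 and 4, which held both times, Sesn3 differed by 1.46 and 1.08, Klf15 by -1.05 and -0.91, Trim63 by -1.15 and -0.37 and Irs2 by -0.07 and -1.0. Fbxo32 ended at 2.78 ± 0.14 after 2.70 ± 0.48 at 24 h, a difference of 0.08 (95% interval -0.41 to 0.57).

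**Figure D3:**
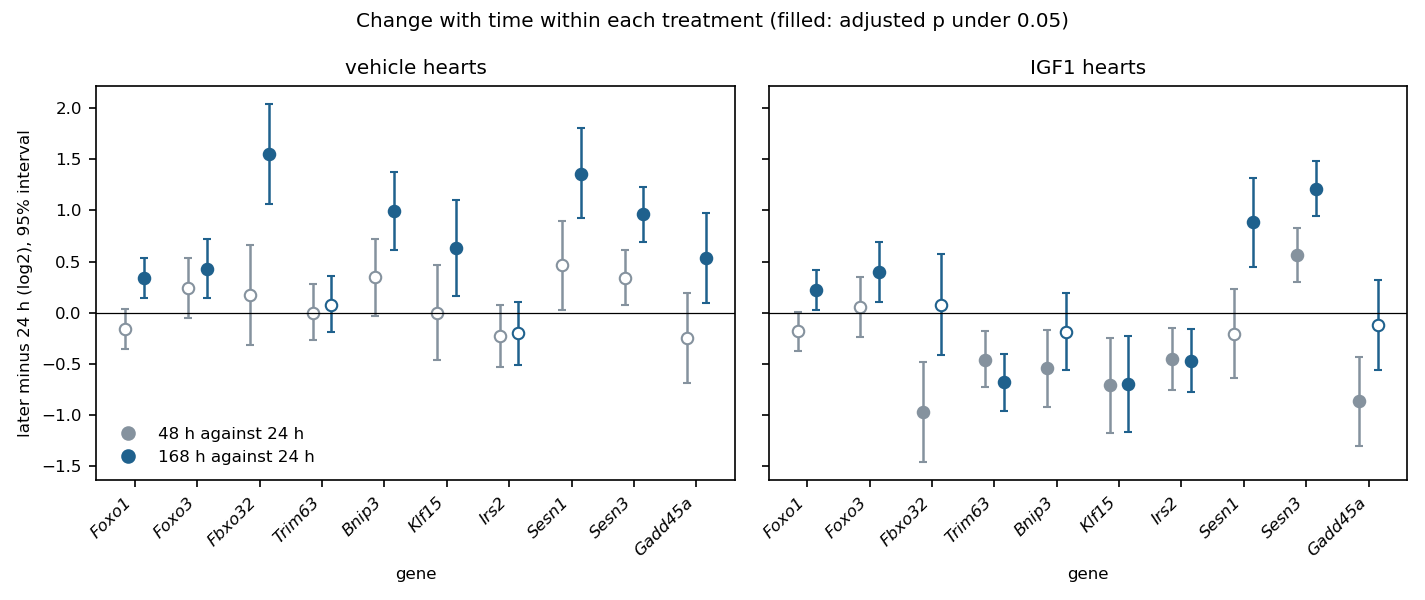
The y axis gives the difference of 48 h (grey) and 168 h (blue) from 24 h in log2, with 95% intervals, for each gene; vehicle is on the left and IGF1 on the right, with 4 arrays a group, and filled dots passed an adjusted p under 0.05. The 168 h values of Sesn1 and Sesn3 are above 0 in both panels, and those of Fbxo32 and Bnip3 are filled in the left panel and open in the right.

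The groups' means order the conditions differently from gene to gene. For Klf15, Trim63 and Irs2 the IGF1 group of 24 h was the highest of the 6, at 1.80 ± 0.33, 4.40 ± 0.31 and 2.33 ± 0.20. For Fbxo32, Bnip3, Sesn1, Sesn3, Foxo1, Foxo3 and Gadd45a it was the vehicle group of 168 h. The IGF1 group of 168 h came next by 0.02 for Foxo1, 0.06 for Sesn3, 0.08 for Sesn1 and 0.09 for Foxo3. For Gadd45a the IGF1 group of 24 h came next by 0.15. These gaps are within the spread and set no order. Bnip3 at 24 h with IGF1, 5.22 ± 0.50, stood within 0.06 of its level at 168 h with vehicle, 5.28 ± 0.13, a gap within the spread. The means of Fbxo32 formed a low set of 3 groups, at 1.57 to 1.75, and a high set of 3, at 2.70 to 3.12, with a gap of 0.95 between them. Single arrays of the sets overlapped: vehicle at 48 h reached 2.26, and IGF1 at 24 h went down to 2.23.

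Across the 24 arrays the 10 genes did not run as one block. Of the 45 pairs 35 had a Pearson r above 0, with a median of 0.42, and 29 did once group means were removed, with a median of 0.14. These r values describe arrays that share groups, slides and tissue makeup and carry no test. Fbxo32 ran closest to Sesn1 (r = 0.85, and 0.83 after group means were removed) and Bnip3 (0.84 and 0.56). Trim63 ran with Bnip3 (0.54 and 0.76) and against Sesn3 (-0.61 and -0.52), and Irs2 ran against Sesn1 (-0.42 and -0.47).

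**Figure D4:**
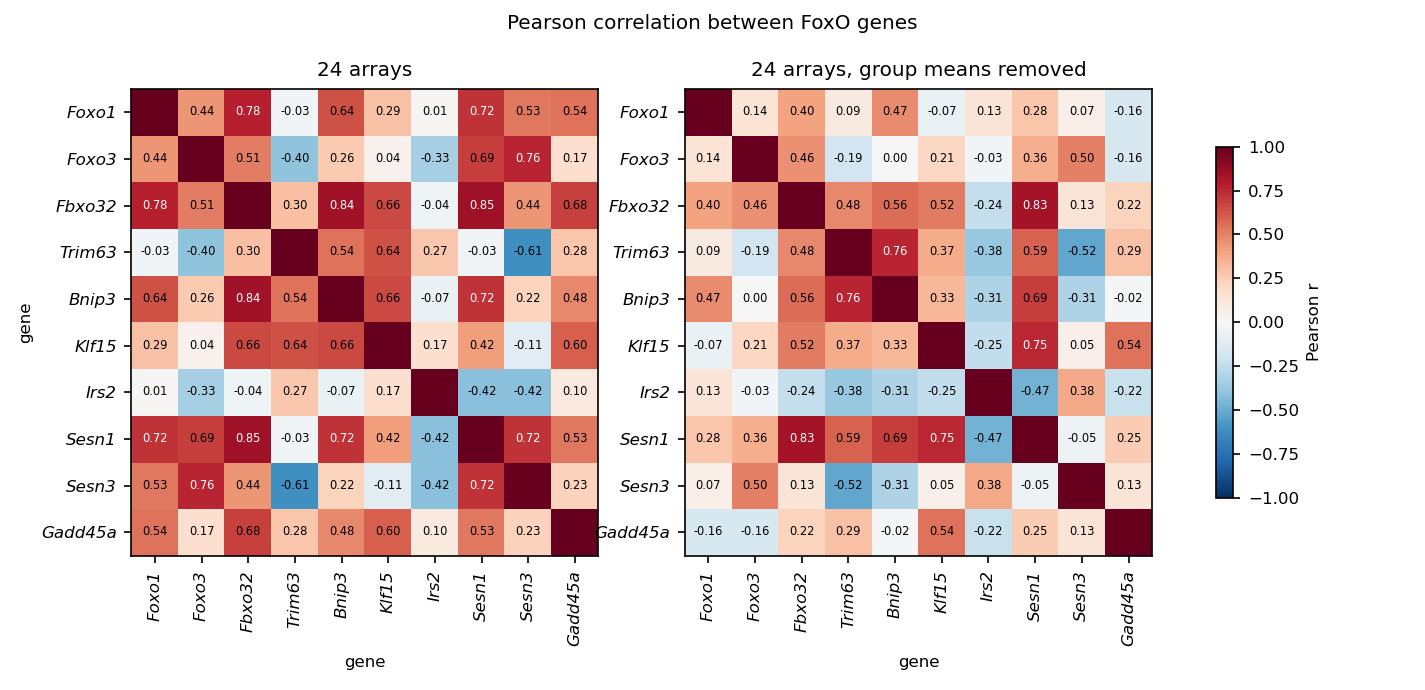
Pearson r of each pair of the 10 genes over 24 arrays (left) and over the same arrays after each group's mean was removed (right), on a colour scale from -1 to 1. Fbxo32 and Sesn1 stay high in both, at 0.85 and 0.83, while most pairs with Irs2 are near or below 0.

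Of all genes tested, those whose levels ran closest to each of the called genes over the 24 arrays were Calcoco1 (r = 0.953), Dcaf8 (0.945) and Tcea2 (0.927) for Fbxo32, Aox1 (0.933), Csdc2 (0.932) and Kiz (0.929) for Bnip3, Scp2 (0.928), Sdhc (0.912) and Gstm1 (0.905) for Trim63, and Amy1 (0.888), Dip2c (0.871) and Osbpl2 (0.867) for Klf15. Dyrk1b was nearest to Sesn1 (0.957), Invs to Sesn3 (0.963), Fam210b to Foxo1 (0.933), Ncoa3 to Foxo3 (0.869), Pex5 to Irs2 (0.864) and Pigv to Gadd45a (0.878).

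Further genes of the pathway were read from fixed lists, in which 14 genes stand in more than 1 list. Of 27 other FoxO targets measured, 6 were higher with IGF1 at 24 h and 1 was lower, against 8.76% and 7.26% of all genes. Pdk4, the kinase that shuts off pyruvate dehydrogenase, rose 3.58-fold (log2 1.84, SE 0.33, adjusted p = 0.00198), Pink1, the kinase that starts mitophagy, 1.59-fold (adjusted p = 0.00168), and catalase (Cat) 1.60-fold (adjusted p = 0.00415). Trib1, a pseudokinase that feeds proteins to a ubiquitin ligase, was the gene that fell, by 0.33 (SE 0.11, adjusted p = 0.0432). Its call, near the threshold, was not recomputed under other settings. The list's median was 0.20 against 0.01 over all genes.

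Of 31 genes between the IGF1 receptor and FoxO, 3 rose and 2 fell, with a median of 0.04. These are about the shares over all genes, 8.76% and 7.26%, and the genes named next are single genes of the list. Sgk1, a kinase related to AKT that also phosphorylates FoxO, rose by 0.79 (SE 0.19, adjusted p = 0.0106), and Tsc2, a brake on mTORC1, by 0.39 (SE 0.09, adjusted p = 0.00826). The lipid phosphatase Inpp5d, known mostly from blood cells, fell by 0.58 (SE 0.12, adjusted p = 0.00398). The receptor gene Igf1r differed by -0.29 (SE 0.16, adjusted p = 0.246).

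The lists for protein and amino acid breakdown held rises and 0 falls, where 8.76% of all genes rose and 7.26% fell. At that share few falls would be due in lists of 18 to 22 genes. Of 22 ubiquitin ligase genes 4 rose (median 0.14), led by Fbxo31 at 2.60-fold (log2 1.38, SE 0.21, adjusted p = 0.000797), with Fbxo21 at 0.39 and Fbxl22 at 0.91. Of 21 autophagy and mitophagy genes 4 rose (median 0.11), among them Pink1, Map1lc3a by 0.49 and Ulk1 by 0.52. Of 18 genes of amino acid catabolism, a process driven by Klf15, 10 rose (median 0.50): Aldh6a1 by 0.99 (SE 0.18, adjusted p = 0.00198), Bckdha by 0.78 (SE 0.16, adjusted p = 0.00386) and Ivd by 0.67 (SE 0.14, adjusted p = 0.00444) had the smallest p. All 3 encode enzymes that break down branched-chain amino acids.

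Of 18 glucocorticoid-induced genes 5 rose and 0 fell (median 0.35), against 8.76% and 7.26% of all genes. The 5 were Pdk4, Sgk1, Dusp1 by 0.63, Lcn2 by 1.49, and Hif3a by 1.34 (SE 0.32, adjusted p = 0.00905). The probe of Hif3a was above background on 2 of 4 vehicle and 4 of 4 IGF1 arrays. Of 16 further stress and arrest genes 1 rose and 1 fell (median -0.08), near the shares of 8.76% and 7.26% over all genes. Ccng1, a p53 target, rose by 0.59 (SE 0.14, adjusted p = 0.00934), and Trp53 fell by 0.28 (adjusted p = 0.0459), a call that was lost under 12 of 19 other settings (adjusted p = 0.15 with the 24 h arrays alone). At 48 and 168 h these 7 lists held 0 called genes.

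**Figure D5:**
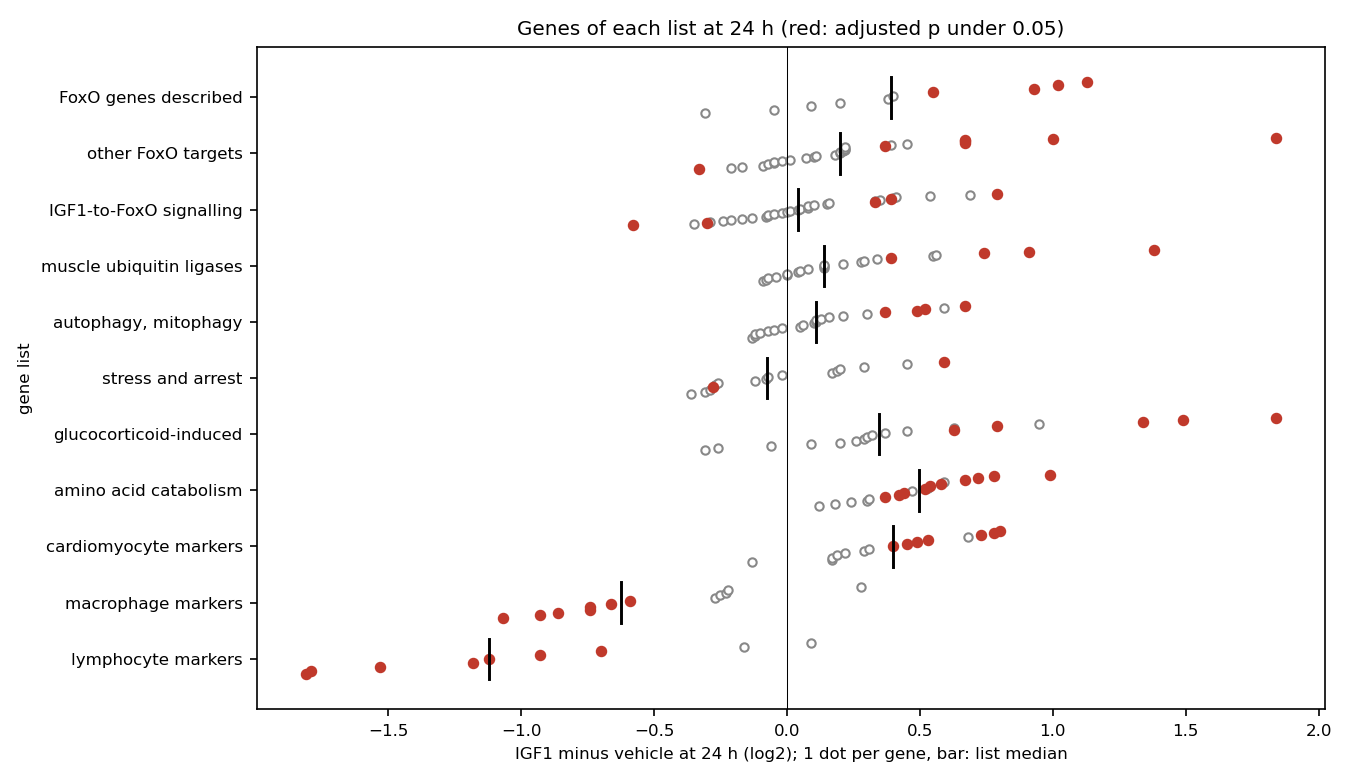
The x axis gives the difference between IGF1 and vehicle at 24 h (log2) of every measured gene of each list, 1 dot per gene, with red dots for an adjusted p under 0.05 and a bar at the list's median. Amino acid catabolism (10 of 18 red, median 0.50) and cardiomyocyte markers (7 of 15 red, median 0.40) lie to the right. Monocyte and macrophage markers, labelled macrophage (7 of 12 red, median -0.62), and lymphocyte markers (7 of 9 red, median -1.12) lie to the left. Of the 10 marker lists only those of cardiomyocytes, macrophages and lymphocytes are drawn. Over all genes 8.76% rose and 7.26% fell.

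Markers of some cell types differed at 24 h as well, where 8.76% of all genes rose and 7.26% fell. In bulk tissue, fewer cells of a type and less RNA per cell cannot be told apart. Of 15 cardiomyocyte markers 7 were higher with IGF1 and 0 lower, with a median of 0.40, and their summed level ran from 2690 to 3570 with vehicle and from 3480 to 4190 with IGF1, in units of the array's 75th percentile. All 15, including Myh6 and Tnnt2, were above background on 24 arrays. Of 12 genes on the monocyte and macrophage list 0 were higher and 7 lower, with Ptprc down by 0.86, Ccr2 by 1.07 and Csf1r by 0.59. The summed level of the 12 ran from 162 to 170 with vehicle and from 125 to 139 with IGF1. Of 9 measured lymphocyte markers 7 were lower, and the summed level ran from 4.51 to 5.70 with vehicle and from 3.19 to 3.61 with IGF1. Of 9 neutrophil, 9 endothelial and 6 erythrocyte markers 0 passed in either direction. Of 10 fibroblast markers 0 were higher and 1 was lower. Among 8 smooth muscle and pericyte markers 1 was higher and 1 lower, and among 5 adipocyte markers measured 1 was higher and 0 lower. Of 4 skeletal muscle markers measured 1 was higher and 1 lower, with a median of -0.05. Atp2a1 was higher by 0.96 (adjusted p = 0.0167), and by 0.77 (adjusted p = 0.0769) without IGF1 array 1. Tnnt3 fell by 0.97 (adjusted p = 0.0435), a call lost under 10 of 19 other settings (adjusted p = 0.0705 with normexp background correction). The other 4 of the list, Myh1, Myh2, Myh4 and Actn3, were not tested. They lacked a matched probe or one well above background on at least 4 arrays.

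On slides 1 to 4 the mean of the cardiomyocyte markers differed between IGF1 and vehicle by 0.60, 0.50, 0.47 and 0.04. On slide 4, where it differed by 0.04, Klf15 differed by 1.02, Fbxo32 by 0.34 and Bnip3 and Trim63 by 0.20. Over the 24 arrays the mean of these markers had a Pearson r of 0.78 with Bnip3, 0.72 with Fbxo32, 0.68 with Trim63 and 0.67 with Klf15. With the genes not called, r was 0.64 for Gadd45a, 0.55 for Sesn1, 0.4 for Foxo1, 0.1 for Foxo3, -0.08 for Sesn3 and -0.14 for Irs2. After group means were removed r was 0.75 with Trim63, 0.67 with Sesn1, 0.63 with Bnip3 and 0.49 with Fbxo32. It was 0.38 with Klf15, 0.36 with Gadd45a, 0 with Foxo3, -0.01 with Foxo1, -0.43 with Sesn3 and -0.77 with Irs2. The part of tissue makeup in the 24 h differences was not tested.

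From 24 to 168 h with vehicle 28.1% of all genes rose and 32.1% fell, and the counts of the lists are to be read against that. Of the 27 other FoxO targets 11 rose and 7 fell, including Ccng2, an inhibitor of cell division, up by 1.45 (SE 0.16), Eif4ebp1, a repressor of translation, down by 1.02 (SE 0.10), and Trib1 down by 1.01 (SE 0.11). Of the 31 signalling genes 8 rose and 13 fell, about the share over all genes for rises: the adaptor Irs1 rose by 1.44 (SE 0.17), the PI3 kinase subunit Pik3cb fell by 1.58 (SE 0.13), and Xpo1, the exportin that carries FoxO proteins out of the nucleus, fell by 0.86 (SE 0.10). In the same span 5 of 15 cardiomyocyte markers rose, again near that share, and 0 fell, 9 of 10 fibroblast markers rose and 7 of 9 neutrophil markers fell. The summed level of fibroblast markers went from 309 to 414 at 24 h to 1490 to 1680 at 168 h, and its part in the changes of the 10 genes was not tested.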

How the data were processed

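Total RNA of 24 samples was labelled with Cy3 and hybridised to Agilent SurePrint mouse arrays, per the labels. The deposited spot intensities come from Agilent Feature Extraction (version 12.0.3.2), background-subtracted by the scanner software per the file headers; an aligner or build is not given in the sources used here. A deposited table of log2 values on a centred scale served as an alternative; its probe values, once centred, had r = 1 with the scanner values, and its column medians ran from -0.0557 to 0.0527.

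Here control and outlier spots were dropped, spots of a probe averaged, and log2 intensities set relative to the 75th percentile over an array's probes (a signal of 372 to 622). Of 56605 probes, 33767 matched 1 gene symbol by accession in the RefSeq table (GRCm38.p6) and 22838 none. Probes well above background on at least 4 arrays were kept, and the brightest stood for its gene. On each array 52.8 to 62.9% of spots were well above background, 0 were saturated, and arrays of a group correlated at 0.983 to 0.993; the number of arrays limits the precision. All 24 columns of the files mapped to a sample, with 0 left over.

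Tests used limma 3.58.1 (R 4.3.3), with 1 mean per group over all 24 arrays (18 residual degrees of freedom), Benjamini-Hochberg adjustment over 15875 genes and a two-sided threshold of 0.05; the fit was tested on simulated data. Alternatives were normexp (offset 50), quantile and median scaling, no filter, 12 arrays as filter, the mean of probes, the deposited table, slide or replicate block, array weights, the compared groups alone, and each array left out. The 10 genes and all lists were chosen with earlier results of these data known. Named beyond the 10 were up to 3 genes per list with the smallest p in the comparison described, members of counts of 5 or fewer, Igf1r and 2 cardiomyocyte markers named after their values were seen, and for each gene its nearest genes by Pearson r. Same-numbered samples deviated together at 168 h (correlations 0.19 to 0.50) but not at 24 h (-0.05 to 0.13) or 48 h (-0.01 to 0.11). Those of 168 h also shared a slide, and samples of different numbers were not compared. Pairing by number and a shared slide therefore cannot be told apart there.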

Additional observations from a re-analysis of the deposited data

Results flagged for a closer look

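In 3 of 60 groups of 4 arrays, 1 array lay far from the other three; chance alone sets about 1 in 20 groups apart. Sesn3 was highest on vehicle array 3 of 48 h, at -0.36 against -0.52 to -0.51. Gadd45a was lowest on IGF1 array 3 of 48 h, at -1.33 against -0.80 to -0.73, and highest on vehicle array 4 of 168 h, at 0.70 against -0.13 to -0.02. Without that last array, the rise of Gadd45a with vehicle from 24 to 168 h came to 0.33 (adjusted p = 0.169).

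The IGF1 effect differed between 24, 48 and 168 h for 4 of the 10 genes by limma's test over the 3 times: adjusted p = 0.0222 for Bnip3, 0.0259 for Fbxo32, 0.0404 for Klf15 and 0.0442 for Trim63. In all 4 the effect was above 0 at 24 h and below 0 at 168 h, the latter without passing the test.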

How the results depend on the processing

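Differences and counts of the 10 genes were recomputed 1 choice at a time. Of the list genes, only up to 3 per list with the smallest p at 24 h were recomputed, and for 24 h alone. Trib1, Dusp1, Lcn2 and Igf1r were not recomputed. Neither were the counts and medians of the lists, correlations, nearest genes and summed marker levels. The fit on the compared groups alone was not made for the mean and the test over 3 times. No called value of the 10 genes changed sign, and of 1718 values that missed the threshold, 94 turned sign and still missed it. At 24 h the 4 rises held in all alternatives except the fit on the compared groups alone, which kept 1, Klf15, and called 947 genes in all, against 2542; with each array left out the total ran from 1203 (without IGF1 array 1) to 2508, with 1319 without vehicle array 2. That fit also ended the calls of Sgk1, Fbxo21, Fbxl22, Map1lc3a, Ulk1 and Hif3a (adjusted p from 0.0633 to 0.137), and Fbxl22 lost its call under 4 of 19 alternatives. The test over 3 times called 2 of the 10 genes with the array median as scale and 2 with no filter, and 0 to 4 with each array left out; the cause was not tested. In the contrast of 24 with 48 h array weights called 1 gene, Bnip3 (0.83, adjusted p = 0.0366), and leaving out an array 0 to 1. For the vehicle step from 24 to 48 h, slide as a block and array weights called 1 rise each, and leaving out an array 0 to 1. For vehicle from 24 to 168 h the count of rises was 4 with the array median and 5 with slide as a block. With IGF1, slide as a block gave 3 falls from 24 to 48 h, and 3 rises and 1 fall from 48 to 168 h (1 fall also with the compared groups alone); from 24 to 168 h the rises were 2 with the array median, with the mean of probes and with slide as a block, and 2 to 4 with each array left out. The replicate block changed no call of the 10 genes between IGF1 and vehicle (at 24 h adjusted p = 0.00891 for Fbxo32, 0.00501 for Klf15, 0.00756 for Bnip3 and 0.00715 for Trim63) and could not be fitted to the steps in time. Signal limits Foxo3's second probe, above background on 13 of 24 arrays.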
